A study of Mus musculus with 59 samples.

Results

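The cortex of mice at zeitgeber time 6 (ZT6) was set against the cortex of mice at ZT18. These are 20 of the 59 RNA sequencing libraries of the study, 10 at ZT6 and 10 at ZT18, chosen by the time given in their titles, and all genes of the deposited table were used. The study collected homogenate medial prefrontal cortex from adult wild-type C57BL/6J mice, an inbred strain, at 4 h intervals over 24 h. Each time had 5 libraries from males and 5 from females here, and no group carried a transgene, a deletion or a drug treatment in the labels. By the zeitgeber convention, ZT0 is lights on, so that ZT6 is the middle of the light phase and ZT18 the middle of the dark phase of a cycle with 12 h of light. The light schedule itself is not in the labels. Nor do they state that every library is a separate animal. The titles carry a number after the sex letter, and some numbers repeat within a time and sex. Libraries of a group may therefore share an animal, and n counts libraries throughout. A p-value here reflects the scatter among libraries, which may be partly technical.

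Mice are active mainly in the dark phase, and many cortical transcripts follow either the clock or the animal's activity. The molecular clock is a feedback loop in which the factors CLOCK and BMAL1 bind E-box sequences and switch on the Period genes, whose proteins then repress the same factors. Immediate early genes are a separate class, switched on within minutes by synaptic activity through calcium and kinase signals. They include transcription factors of the FOS, JUN and EGR families and Arc, whose protein acts at synapses.

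The table held 4484 genes, of which 4273 were tested because 4 or more of the 59 libraries had 10 or more reads. Reads in the table came to between 6317420 and 12543192 per library, and between 1350611 and 3994437 lay outside the 6 most abundant noncoding genes. Those 6 genes took 75.5% ± 6.87 of the reads at ZT6 and 75.6% ± 6.78 at ZT18 (SD, n = 10 each; two-sided permutation test, p = 0.954). The titles carry serial numbers, and the libraries were grouped by 5 runs of 12 numbers. Each run held 1 library of each sex at ZT6 and at ZT18. Serial number 54 is absent, and run 5 has no ZT10 female library. On the first principal component of the 20 libraries, which held 28.6% of the variance, the 2 male libraries of run 4 had the highest scores, 38.6 at ZT6 and 29.5 at ZT18. All 4 libraries of run 5 had scores below 0. The count of genes that changed in both sexes together is given with and without these libraries. Other results are given so only where stated. The tissue label was met by markers of cortical glutamatergic neurons, with Slc17a7, the vesicular glutamate transporter gene, at a log2 value of 14.88 ± 0.20 at ZT6 and 14.89 ± 0.16 at ZT18 (SD, n = 10 each).

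In the fit of both sexes together, few of the genes tested differed between the middle of the light and of the dark phase. Genes absent from the deposited table could not be tested. Of 4273 genes, 12 changed at an adjusted p under 0.05 (0.281%), with 1 higher at ZT6 (0.0234%) and 11 lower (0.257%). All tests were limma on the deposited log2 values with sex and run as terms, and the Benjamini-Hochberg (BH) adjustment ran over all genes. At an unadjusted p under 0.05 there were 382 genes (8.94%), 161 higher and 221 lower at ZT6, and the median difference of all genes was 0.005 on the log2 scale. The genes that fell at ZT6 were Arc, Banp, Junb, Gfod1, B4galt5, Irs1, Fam129b, Tent5a, Per2, Egr1 and Per1, and Gm12966 rose. Groups of 10 without overlap were found for 3 genes (0.0702%), which were Arc, Banp and Gm12966. All 11 genes that fell were lower at ZT6 in each of the 5 runs, and 8 of them in every one of the 10 pairs of libraries of the same run and sex. These pairs share a run number and are not shown to share an animal. A count of pairs therefore describes the direction and is not a paired test. The genes were chosen by the fit of these same libraries, so the counts of runs and pairs are not further support. Since this is bulk tissue, fewer cells of a type and less RNA per cell cannot be told apart.

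**Figure D1:**
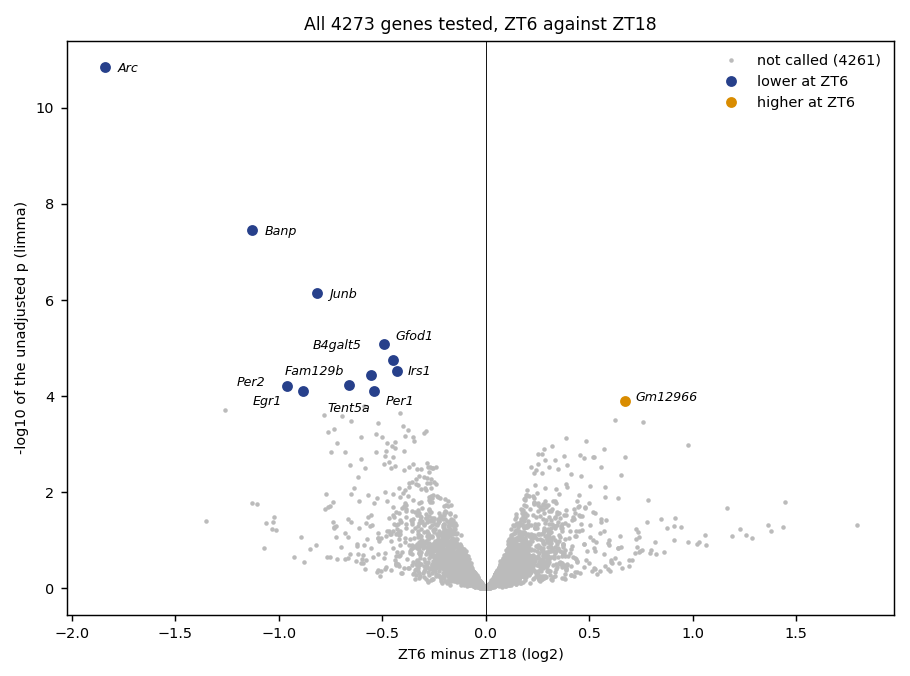
Difference between ZT6 and ZT18 (log2, horizontal axis) against the −log10 of the unadjusted p from limma (vertical axis) for all 4273 genes tested. The 11 genes that fell at ZT6 are blue, Gm12966 is orange, and Arc stands alone at the top left.

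The count depended on which libraries were fitted. Without run 5, 3 genes changed, which were Arc, Banp and Junb, and the other 9 had adjusted p from 0.0647 to 0.172 (limma, BH) with log2 differences of the same sign. Leaving out the male libraries of run 4, 19 genes changed, 1 higher and 18 lower, and 11 of the 12 were among them. On the recovered reads, limma voom called 20 genes (0.468%), all 12 among them, with Fos, Tsc22d3, Fgfr3, Paqr8, Mettl7a1, Mfsd2a and Rasl10a also lower and Hs3st1 higher. A fit of all 59 libraries with a term for each of the 6 times, called the 6-time fit here, gave 48 genes for the same contrast (1.12%). Of the 12 genes, 10 were among them, and Tent5a and Gm12966 were not.

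Arc had the largest difference of all genes that changed. Its protein forms capsid-like particles and drives the removal of AMPA receptors from synapses, and its mRNA is a standard marker of recently active neurons. Arc (ENSMUSG00000022602, chromosome 15, 74669083 to 74672570 in GRCm38) had log2 values with a lowest of 9.34, a median of 9.58 and a highest of 10.04 in ZT6 libraries, against 10.62, 11.53 and 12.03 in ZT18 libraries. Every ZT6 library lay below every ZT18 library. The log2 difference was −1.84 ± 0.13 (SE, n = 10 each), or 3.58-fold lower, with an adjusted p of 6.01e-08 (limma, BH). Across the 5 runs the difference went from −2.31 to −1.20. Arc was counted from 178 to 1375 reads per library, and the call held in all 34 alternative settings.

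Among transcription factor genes of the immediate early class, 13 of 33 listed were tested, and 2 fell at ZT6, Junb and Egr1, against a background of 0.257%. The list had a median log2 difference of −0.53, against 0.005 for all genes. Of its 13 members, 9 had an unadjusted p under 0.05, all lower, where 5.17% of all genes did. This list and the lists below were chosen with earlier results of these data known, so their counts and medians are descriptions. Junb (chromosome 8, 84974484 to 84978718), a JUN-family partner in the AP-1 complex, had a lowest of 9.03, a median of 9.56 and a highest of 9.85 at ZT6, against 9.76, 10.36 and 10.76 at ZT18. The groups overlapped by 1 library each, the highest ZT6 female and the lowest ZT18 male. Junb fell by 0.82 ± 0.11 on the log2 scale (limma, BH-adjusted p = 0.000993), and it lost the call in 1 of 34 settings. Of the exonic bases of Junb, 7.52% lie opposite the gene Prdx2 on the other strand. Egr1 (chromosome 18, 34859823 to 34864984), a zinc finger factor induced by synaptic stimulation, had a lowest of 9.65, a median of 10.33 and a highest of 11.35 at ZT6, against 10.63, 11.53 and 11.80 at ZT18. The male libraries overlapped, while the 5 female ZT6 libraries lay below the 5 female ZT18 libraries. Egr1 fell by 0.88 ± 0.17 (limma, BH-adjusted p = 0.03), and 16 of 34 settings ended the call. Without run 5 the list held 1 gene that changed, Junb, and with voom 3, which were Junb, Egr1 and Fos.

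Fos, the founding immediate early gene and the other part of AP-1, had a larger difference than Egr1 but did not pass. Its log2 values had a lowest of 5.89, a median of 7.72 and a highest of 7.97 at ZT6, against 7.47, 8.87 and 9.21 at ZT18. The ranges overlapped, and 8 of 10 pairs were lower at ZT6. The log2 difference was −1.26 ± 0.27 (limma, BH-adjusted p = 0.0585), lower in all 5 runs. The adjusted p ran from 0.00142 to 0.665 over 34 settings, of which 8 passed. Jun had a difference of −0.40 ± 0.09 (limma, BH-adjusted p = 0.0815), Ier5l of −0.53 ± 0.13 (0.0931) and Zfp189 of −0.72 ± 0.18 (0.108). Srf, which encodes the serum response factor that acts upstream of Fos and Egr1, differed by −0.29 ± 0.10, Fosb by −0.65 ± 0.23 and Egr2 by −1.03 ± 0.47 on the log2 scale, none past the threshold. In the 6-time fit 6 members of the list changed, with Fos, Jun, Ier5l and Zfp189 beside Junb and Egr1. Nr4a2, an orphan nuclear receptor, was the member with a difference above 0, at 0.07.

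In the list of activity-induced effector genes, most of which act at synapses or in signalling, 15 of 34 were tested. Arc and Per1, which is also in the clock list, fell, where 0.257% of all genes did. Without run 5 Arc passed and Per1 did not. At an unadjusted p under 0.05 there were 8, 7 of them lower, where 8.94% of all genes were at that level and 5.17% were lower. The median log2 difference of the list was −0.23. Arl4d, a small GTPase gene, had a difference of −0.76 ± 0.18 (limma, BH-adjusted p = 0.0923), and Gadd45b, which encodes a stress-response factor tied to DNA demethylation, of −0.74 ± 0.28. Homer1, the gene of a postsynaptic scaffold, was abundant at 13.03 ± 0.29 at ZT6 and 13.25 ± 0.29 at ZT18 (SD, n = 10 each) and differed by −0.23 ± 0.10 (limma, BH-adjusted p = 0.532). Nptx2, which encodes a pentraxin secreted at excitatory synapses, lay the other way at 0.43 ± 0.17 (limma, BH-adjusted p = 0.452), with 9.57 ± 0.45 at ZT6 and 9.14 ± 0.34 at ZT18. Members of this list therefore did not share 1 direction, and Errfi1, a feedback inhibitor of EGF receptors, and Gpr3 differed by −0.31 ± 0.11 and −0.44 ± 0.21 without passing.

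The clock list has 20 genes, 7 of which could be tested. Per1 and Per2 fell at ZT6, against the 0.257% of all genes. The list had a median log2 difference of −0.29, and 6 of 7 had an unadjusted p under 0.05, all lower, where 5.17% of all genes did. Per2 (chromosome 1, 91415982 to 91459324), a repressor of the loop, had a lowest of 7.64, a median of 8.31 and a highest of 8.98 at ZT6, against 8.65, 9.45 and 9.98 at ZT18. The groups overlapped at the highest ZT6 males, while the 5 female ZT6 libraries lay below the 5 female ZT18 libraries. It fell by 0.96 ± 0.19, or 1.94-fold (limma, BH-adjusted p = 0.0294), lower in 8 of 10 pairs, and 14 of 34 settings ended the call. Per1 (chromosome 11, 69095217 to 69109960), the Period gene that also responds quickly to light, activity and glucocorticoids, had a lowest of 9.11, a median of 9.75 and a highest of 10.28 at ZT6, against 9.92, 10.34 and 10.56 at ZT18. The groups overlapped by 3 ZT6 and 5 ZT18 libraries, with 1 of 10 pairs higher at ZT6. Per1 fell by 0.54 ± 0.11 (limma, BH-adjusted p = 0.03), and 17 of 34 settings ended the call. Without run 5 no clock gene passed, with adjusted p of 0.0647 for Per2 and 0.0921 for Per1 (limma, BH).

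The set of RefSeq promoter windows used here ran from 250 bases before to 50 after the start. It held 5 of the 11 genes that fell, which were Per1, Irs1, Junb, B4galt5 and Tent5a. Arc, Banp, Gfod1, Fam129b, Per2 and Egr1 had no window in this set, which does not mean that RefSeq lacks them. The E-box CACGTG was in 2 of these 5, Per1 and Irs1, and in 11.7% of the 3205 tested genes with a window. The core TGACG of the cAMP response element (CRE) was in 3 of 5, Per1, Irs1 and Junb, against 37.3%. The D-box TTATGNAA, bound by HLF and its relatives, was in Per1 and in 2.5% of all. The full CRE TGACGTCA was in none of the 5, and in 3.56% of all. The CCAAT box was in 2 of 5, against 42.4% of all, and the ER stress element core CCACG in 3 of 5, against 52.8%. The heat shock element core GAANNTTC was in none of the 5, and in 6.43% of all. The 250 bases before the start of Per1, Irs1 and Junb are shown because they hold the E-box, through which the clock acts, or the CRE core, through which synaptic signals reach immediate early genes. Capitals mark both, searched on either strand. In Irs1 the E-box and the core, on the other strand, overlap by 2 bases.
Per1, chr11:69098699-69098948, plus strand: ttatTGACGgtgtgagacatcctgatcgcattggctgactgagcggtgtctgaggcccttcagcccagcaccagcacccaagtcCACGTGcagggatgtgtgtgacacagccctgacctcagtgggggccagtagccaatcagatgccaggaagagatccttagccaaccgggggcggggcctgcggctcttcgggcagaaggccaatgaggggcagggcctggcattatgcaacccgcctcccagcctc
Irs1, chr1:82291440-82291689, minus strand: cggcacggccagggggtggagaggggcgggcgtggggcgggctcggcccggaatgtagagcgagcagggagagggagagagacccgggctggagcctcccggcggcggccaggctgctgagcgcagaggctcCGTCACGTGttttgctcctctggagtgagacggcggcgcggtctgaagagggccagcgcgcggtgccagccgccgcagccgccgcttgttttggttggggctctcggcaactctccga
Junb, chr8:84978749-84978998, minus strand: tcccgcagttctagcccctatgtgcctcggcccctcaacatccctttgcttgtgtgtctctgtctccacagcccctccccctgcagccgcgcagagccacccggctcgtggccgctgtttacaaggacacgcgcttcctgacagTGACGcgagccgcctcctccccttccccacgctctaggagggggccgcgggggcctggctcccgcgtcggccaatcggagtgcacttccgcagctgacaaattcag
The E-box started at −166 from the start in Per1 and −115 in Irs1, the core at −246 in Per1, −118 in Irs1 and −106 in Junb, and the D-box of Per1 at −24 with the letters TTATGCAA. Per1 has another window in RefSeq, at a start further downstream, which held the core at −132 and no E-box and is not shown. These matches describe letters in a window and are not evidence of binding.

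The other clock genes were closer together between the times. Per3 had 8.35, 8.73 and 9.08 as lowest, median and highest log2 value at ZT6, against 8.87, 9.12 and 9.49 at ZT18. Its log2 difference was −0.37 ± 0.11 (limma, BH-adjusted p = 0.167) and it passed in 0 of 34 settings. Hlf, a PAR bZIP factor that carries clock output through D-boxes, had a difference of −0.29 ± 0.07, lower in 10 of 10 pairs (limma, BH-adjusted p = 0.0902 in the 20 libraries and 0.04609 in the 6-time fit). Nr1d1, which encodes the repressor REV-ERB alpha and usually peaks in the light phase, had 9.41, 10.13 and 10.76 at ZT6, against 9.46, 10.03 and 10.51 at ZT18, a difference of 0.15 ± 0.12 (limma, BH-adjusted p = 0.842). Nr1d2 differed by −0.27 ± 0.11 and Rora, an activator that competes with the REV-ERB proteins, by −0.18 ± 0.07, neither past the threshold.

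Banp had the second largest difference among the genes that changed and belongs to no list used here. It encodes a nuclear protein that binds unmethylated CGCG-containing promoters. Banp (chromosome 8, 121949750 to 122029258) had a lowest of 6.70, a median of 7.21 and a highest of 7.75 at ZT6, against 7.92, 8.49 and 8.67 at ZT18. The groups did not overlap. It fell by 1.13 ± 0.13, or 2.19-fold (limma, BH-adjusted p = 7.29e-05), on 31 to 188 reads per library, and the call held in all 34 settings. Of its exonic bases, 3.8% lie opposite a gene on the other strand, and the strand setting of the counting is not given in the sources used here.

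The other genes that fell had smaller differences in narrow ranges. Gfod1 (chromosome 13, 43195245 to 43304172), which encodes a protein with an oxidoreductase domain, had 10.72, 11.11 and 11.27 as lowest, median and highest at ZT6, against 11.12, 11.57 and 11.98 at ZT18. It fell by 0.49 ± 0.08 (limma, BH-adjusted p = 0.0088), with 1 ZT18 library, a male of run 4, inside the ZT6 range, and 2 of 34 settings ended the call. B4galt5 (chromosome 2, 167298444 to 167349183), a galactosyltransferase that makes lactosylceramide, had 9.36, 9.64 and 9.89 at ZT6, against 9.86, 10.10 and 10.30 at ZT18. It fell by 0.45 ± 0.08 (limma, BH-adjusted p = 0.0149), and 1 library of each time lay in the shared range, while 3 of 34 settings ended the call. Irs1 (chromosome 1, 82233101 to 82291416), the adaptor that links insulin and IGF receptors to PI3 kinase, had 8.70, 9.06 and 9.25 at ZT6, against 9.18, 9.41 and 9.64 at ZT18. It fell by 0.43 ± 0.08 (limma, BH-adjusted p = 0.0216), with 1 library of each time in the shared range, and 7 of 34 settings ended the call. Of its exonic bases, 30.9% lie opposite the gene Gm9747, so its reads may include reads of that gene.

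Fam129b (chromosome 2, 32876114 to 32925254), also named Niban2, had 7.37, 8.05 and 8.46 at ZT6, against 8.32, 8.59 and 8.87 at ZT18. It fell by 0.55 ± 0.10 (limma, BH-adjusted p = 0.022), lower in 10 of 10 pairs although the ranges overlapped, and 8 of 34 settings ended the call. Tent5a (chromosome 9, 85320439 to 85327348), a noncanonical poly(A) polymerase gene, had 6.08, 6.59 and 6.90 at ZT6, against 6.81, 7.17 and 7.70 at ZT18. It fell by 0.66 ± 0.13 (limma, BH-adjusted p = 0.0294) on 16 to 87 reads per library, and 17 of 33 settings ended the call. Gm12966 (chromosome 4, 129899093 to 129899902), annotated as a processed pseudogene and named here after its values were seen, had 7.20, 7.39 and 7.75 at ZT6, against 6.35, 6.77 and 7.16 at ZT18. It rose by 0.67 ± 0.14 (limma, BH-adjusted p = 0.0442), higher in 10 of 10 pairs, but 22 of 33 settings ended the call. A processed pseudogene can share reads with its parent gene, so this value is uncertain.

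**Figure D2:**
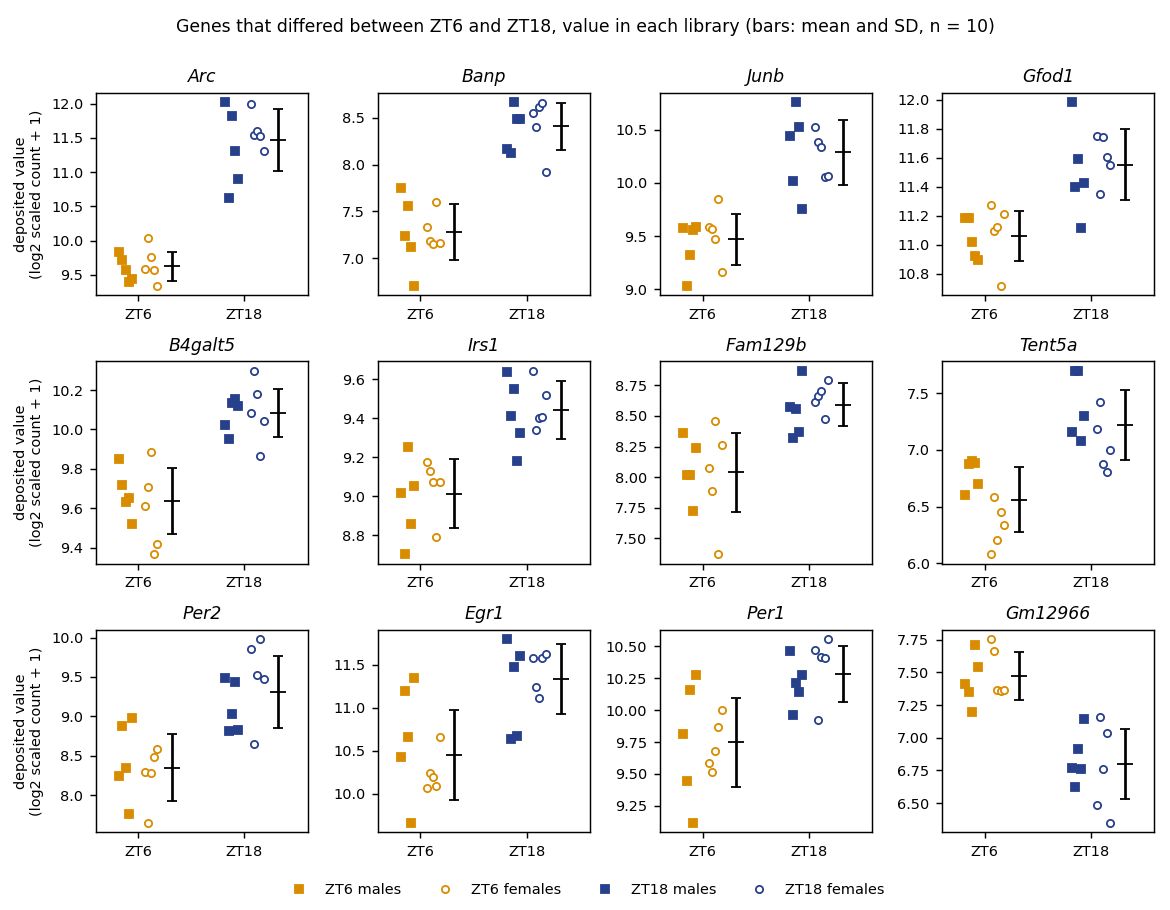
Deposited log2 value of each library (vertical axis, each panel with its own range) at ZT6 and ZT18 for the 12 genes that changed, males as squares and females as circles, with bars for the mean and SD (n = 10). The groups do not overlap for Arc, Banp and Gm12966, and the males of Egr1 spread more than the females.

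Glucocorticoid hormone follows a daily cycle in mice, and 6 of 22 listed glucocorticoid-induced genes were tested. Per1, which is shared with the clock list, fell, where 0.257% of all genes did. Without run 5 Per1 did not pass. The other 5 had differences below 0 that did not pass, where 2064 of all 4273 genes lay below 0. The median of the 6 was −0.43, and 4 of 6 had an unadjusted p under 0.05, where 8.94% of all genes did. Among these 4, Per1 and Errfi1 are also in the list of activity-induced effector genes. Tsc22d3, which encodes the anti-inflammatory factor GILZ, had 9.11, 9.76 and 10.49 at ZT6, against 10.06, 10.42 and 10.98 at ZT18. The ranges overlapped, and the difference was −0.69 ± 0.15 (limma, BH-adjusted p = 0.0654), with 9 of 34 settings passing and adjusted p from 0.00331 to 0.219. Ddit4, an inhibitor of mTOR signalling, differed by −0.61 ± 0.19 (limma, BH-adjusted p = 0.221). Cables1 differed by −0.30 and Pdk4, a brake on pyruvate oxidation, by −0.05.

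Genes of the endoplasmic reticulum (ER) chaperones and the unfolded protein response were tested for 12 of 37 listed, and 0 changed in the 20 libraries with limma on the log2 values or with voom. At an unadjusted p under 0.05 there were 5, all lower at ZT6, where 5.17% of all genes were. The median of the list was 0.05 because the other 7 lay above 0. Hspa5, the main ER chaperone BiP, had 11.95, 12.52 and 13.004 at ZT6, against 12.74, 12.94 and 13.32 at ZT18. The ranges overlapped, and Hspa5 was lower in 10 of 10 pairs with a difference of −0.44 ± 0.11 (limma, BH-adjusted p = 0.124). Manf, a secreted ER stress factor, differed by −0.30 ± 0.07 (limma, BH-adjusted p = 0.0923), Dnajc3, a BiP co-chaperone, by −0.35 ± 0.09 (0.104), Xbp1, a transcription factor of the response, by −0.37 ± 0.12 (0.292), and Pdia6 by −0.20 ± 0.08 (0.43). The stress genes Ddit3 and Asns, targets of another arm of the response, differed by 0.06 and 0.05. In the 6-time fit Hspa5, Dnajc3, Manf and Xbp1 fell.

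Heat shock chaperone genes of the cytosol and mitochondria were tested for 13 of 38, and 0 changed in the 20 libraries with limma or with voom. The median was 0.02, and 2 of 13 had an unadjusted p under 0.05, where 8.94% of all genes did. Dnajb1, an HSP40 co-chaperone, differed by −0.27 ± 0.08 and Hsf1, the factor that switches on these genes, by −0.74 ± 0.34, neither past the threshold. The ZT6 male library of run 4 had 3.97 for Hsf1, where the other ZT6 libraries had 6.98 to 7.96. Within run 4 Hsf1 differed by −2.04, and within the other runs by −0.53 to −0.25. With single libraries left out its difference went from −0.90 to −0.38. In the 6-time fit Dnajb1 fell (limma, BH-adjusted p = 0.02015). Hspa8 and Hsp90aa1 differed by 0.02 and 0.12.

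The Hnrnp genes, which encode RNA-binding proteins, had 0 that changed in the 20 libraries with limma or voom. All 8 tested had differences above 0, where 2209 of all 4273 genes did, with a median of 0.09. At an unadjusted p under 0.05 there were 2, both higher, where 3.77% of all genes were. Hnrnpdl, a splicing and mRNA-binding protein, had 11.03 ± 0.19 at ZT6 and 10.75 ± 0.18 at ZT18 (SD, n = 10 each), higher in 10 of 10 pairs, with a difference of 0.28 ± 0.08 (limma, BH-adjusted p = 0.147 in the 20 libraries and 0.03719 in the 6-time fit). Hnrnpc differed by 0.19 ± 0.07. Of the 4 genes tested of the Srsf, Tra2 and Clk splicing list, Srsf10 differed by −0.49 ± 0.14 (limma, BH-adjusted p = 0.165) and Srsf2 by −0.20 ± 0.08, and the median was −0.23. Srsf10 fell in the 6-time fit (limma, BH-adjusted p = 0.02531).

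Respiratory chain, ribosomal and proteasome lists held no gene that changed in the 20 libraries, with limma or voom. Of all genes, 8.94% had an unadjusted p under 0.05. Nuclear respiratory chain genes, 34 in all, had a median of 0.04. Of them 29 lay above 0, where 2209 of all 4273 genes did, and 0 had an unadjusted p under 0.05. Genes matched by cytosolic ribosomal protein symbols, 40 in all and some with pseudogene symbols, had 1 (Rpl7l1, a ribosomal protein-like gene) and a median of 0.003. Mitochondrial ribosomal protein genes, 31 in all, had 1 (Mrpl3) and a median of 0.09. Genes matched by proteasome symbols, 19 in all, had 0, and they include Psmg1, Psmg2 and Psmc3ip, which are not subunit genes. Among 11 cholesterol synthesis genes, Hmgcs1, the enzyme before HMG-CoA reductase, had 12.99, 13.09 and 13.28 at ZT6, against 12.53, 12.85 and 13.05 at ZT18. It was higher in 10 of 10 pairs with a difference of 0.28 ± 0.07 (limma, BH-adjusted p = 0.125 in the 20 libraries and 0.004386 in the 6-time fit), while Srebf1, a regulator of lipid synthesis, differed by −0.37 ± 0.12 (limma, BH-adjusted p = 0.267).

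**Figure D3:**
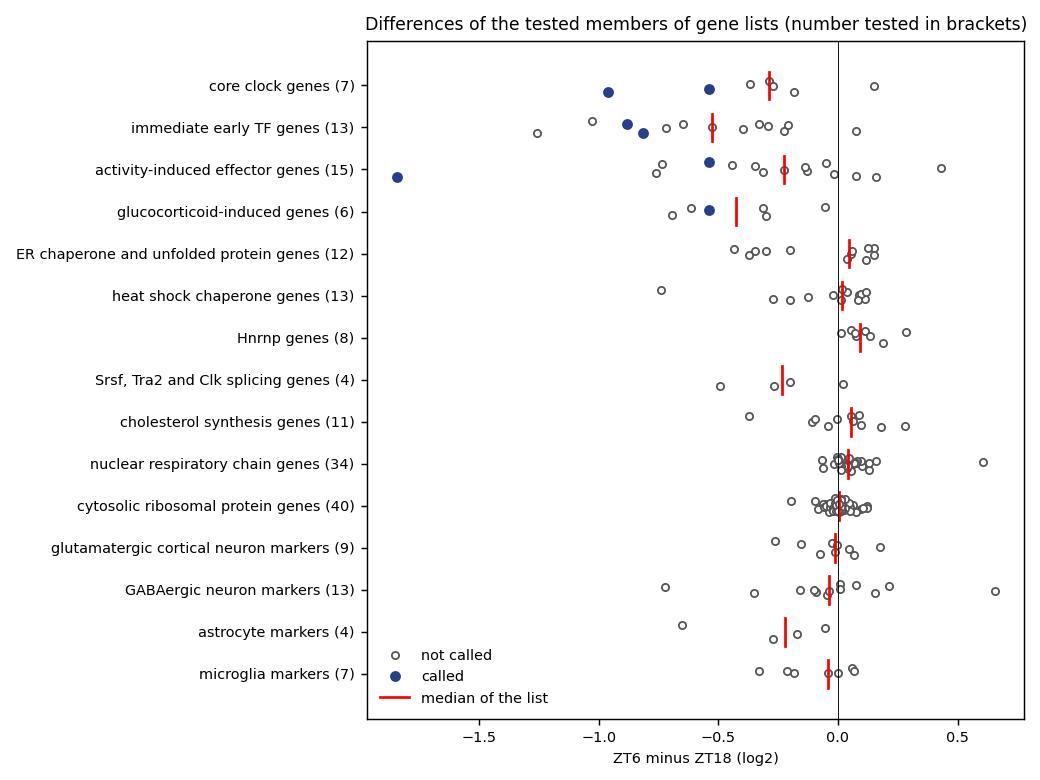
Log2 difference between ZT6 and ZT18 (horizontal axis) for each tested member of 15 gene lists, with genes that changed in blue and the median of each list as a red line. Core clock, immediate early (TF, transcription factor), activity-induced and glucocorticoid lists have medians from −0.53 to −0.23. The medians of the respiratory chain and ribosomal lists lie near 0. The lists were chosen with earlier results of these data known.

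The values just inside and just outside the threshold form a continuum. Inside it lay Per1 and Egr1 at 0.03 and Gm12966 at 0.0442, and outside it Mettl7a1 at 0.0527, Fos at 0.0585, Paqr8 at 0.0627 and Tsc22d3 at 0.0654 (limma, BH-adjusted p). Mettl7a1, a methyltransferase-like gene, had 8.30 ± 0.34 at ZT6 and 8.89 ± 0.17 at ZT18 (SD, n = 10 each) and passed in 11 of 34 settings. Paqr8, which encodes a membrane progesterone receptor, differed by −0.41 ± 0.09 and was lower in 10 of 10 pairs.

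On the side higher at ZT6, no protein-coding gene passed in the 20 libraries as fitted here. The nearest was Hs3st1, a heparan sulfate 3-O-sulfotransferase gene, with 8.10, 8.50 and 8.99 at ZT6, against 7.37, 7.79 and 8.45 at ZT18. Its difference was 0.62 ± 0.14, higher in 9 of 10 pairs (limma, BH-adjusted p = 0.0742). Omg, which encodes oligodendrocyte-myelin glycoprotein, differed by 0.39 ± 0.10 (limma, BH-adjusted p = 0.094), and Mas1, the receptor gene for angiotensin-(1-7), by 0.49 ± 0.12 (0.104). The 6-time fit had 11 genes higher at ZT6, among them Hs3st1, Omg, Mas1, Hmgcs1, Hnrnpdl, Klhdc9, Eif5, Tspyl5, Tbc1d7 and Gpr162, and 37 lower. Those of them outside the lists were named after their values were seen.

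Among markers of the cell types the tissue could hold, 0 genes changed in the 20 libraries as fitted here (limma), while Fgfr3 passed in 8 of 34 settings. For glutamatergic cortical neurons, 9 of 22 markers were in the table, and 0 had an unadjusted p under 0.05, where 8.94% of all genes did. The summed scaled count of these 9 ran from 33398 to 51510 at ZT6 and from 35953 to 51177 at ZT18. For GABAergic neurons, 13 of 22 were in the table, with sums from 9081 to 13979 at ZT6 and from 10342 to 12650 at ZT18. Within that list Crh, the corticotropin-releasing hormone gene, had 6.24 ± 0.45 at ZT6 and 5.58 ± 0.46 at ZT18 (SD, n = 10 each), higher in 10 of 10 pairs on 9 to 37 reads (limma, BH-adjusted p = 0.209). Npy, the neuropeptide Y gene, differed by −0.35 ± 0.15 (limma, BH-adjusted p = 0.521). Astrocyte markers, 4 of 15, had sums from 6968 to 19813 at ZT6 and from 8182 to 19088 at ZT18. All 4 had differences below 0, led by Fgfr3, a fibroblast growth factor receptor gene, at −0.65 ± 0.15 and lower in 10 of 10 pairs (limma, BH-adjusted p = 0.0742, and 0.0006203 to 0.3176 over the settings), while Gja1, the astrocyte connexin, differed by −0.05. Microglia markers, 7 of 16, had sums from 1320 to 2781 at ZT6 and from 1211 to 2496 at ZT18. In the oligodendrocyte list, Apod, an apolipoprotein gene, differed by −0.22 ± 0.15. For endothelial cells Ly6a was tested, at 0.41 ± 0.21, and for leptomeninges Lum, at 0.11 ± 0.36. Striatal markers Penk and Tac1 summed to between 243 and 573 at ZT6 and between 287 and 640 at ZT18. No marker in these lists was at 0 in a library. Choroid plexus and blood markers were not in the table analysed here. The part of these shifts in the genes that changed was not tested.

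Over all 6 times, ZT18 had the highest mean for 9 of the 11 genes that fell and ZT6 the lowest for 7, with both true for 6. These genes were chosen by the same contrast, so this is a description. Arc averaged 10.33 ± 0.23 at ZT2, 9.63 ± 0.22 at ZT6, 9.96 ± 0.39 at ZT10, 11.14 ± 0.36 at ZT14, 11.47 ± 0.45 at ZT18 and 10.91 ± 0.48 at ZT22 (SD, n = 10 except 9 at ZT10). In the order of levels, ZT18 and ZT14 differed by less than their SD, as did ZT14 and ZT22 and also ZT10 and ZT6 by the SD at ZT10. Banp averaged 8.02 at ZT2, 7.28 at ZT6, 7.89 at ZT10, 8.25 at ZT14, 8.41 at ZT18 and 8.11 at ZT22. Its lowest level was at ZT6, while the other 5 times lay between 7.89 and 8.41. Junb and Per1 had their highest mean at ZT14, at 10.42 and 10.40, above their 10.29 and 10.28 at ZT18 by less than 1 SD. Per1 was lowest at ZT2 with 9.44. Per2 was low and level over ZT2, ZT6 and ZT10, at 8.42, 8.35 and 8.33, and high at ZT18. Hspa5 had its lowest mean at ZT10 with 12.28, and Hnrnpdl its highest there with 11.19, so the 2 times compared do not span the whole range of these genes.

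**Figure D4:**
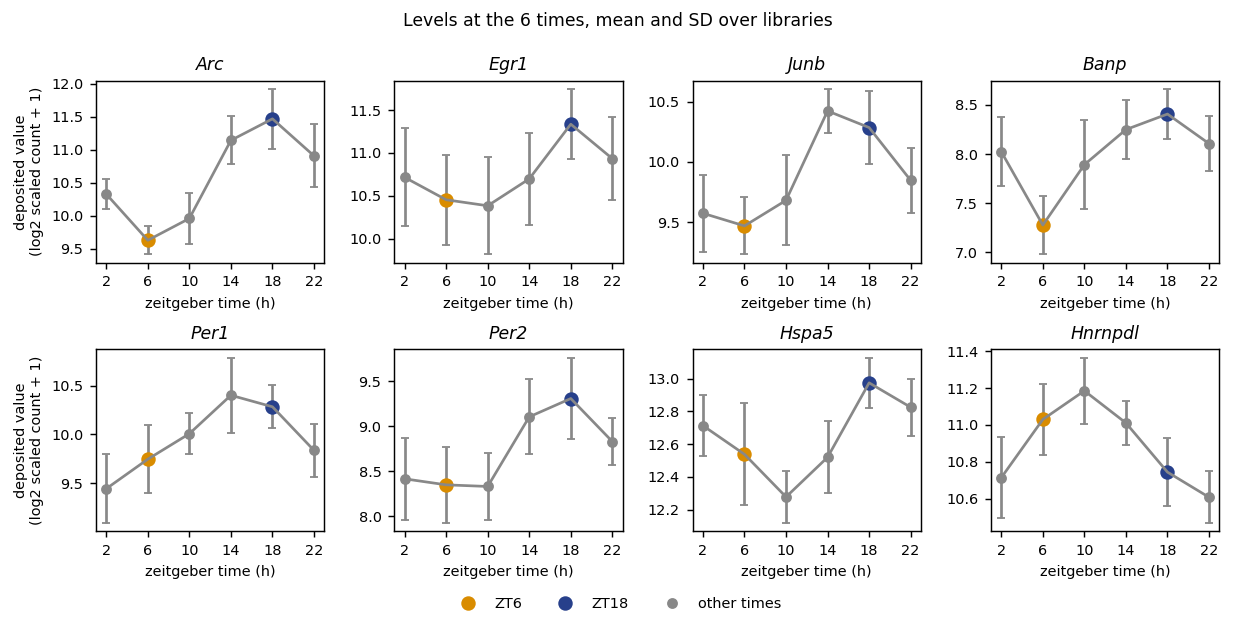
Mean and SD of the deposited log2 values (vertical axis, each panel with its own range) at the 6 zeitgeber times (h, horizontal axis) for 8 genes, with ZT6 in orange and ZT18 in blue. Arc and Banp are lowest at ZT6 and highest at ZT18, while Per1 and Junb peak at ZT14.

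The same comparison was made in each sex with 5 libraries against 5. In females 214 genes changed (5.01%), 52 higher and 162 lower at ZT6, and in males 1 changed (0.0234%), which was Arc. The female count moved with the fit and was 3 without the run term, 2 without the intensity trend and robust fit, and 94 without run 5. In males 6 genes changed without the male libraries of run 4. The difference between the sexes was tested directly, and 0 genes passed, with 390 at an unadjusted p under 0.05 (limma), and with voom 0 passed and 387 were at that level. That result turned on the ZT6 male library of run 4, without which 410 genes passed, and 401 passed without both male libraries of run 4. Whether the sexes differed is therefore not settled by these libraries.

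All 12 genes that changed in the pooled fit had an unadjusted p under 0.05 with the same sign in each sex, and 9 of them also passed in females alone. The pooled fit that chose these genes used the same libraries, so this is a description and not a replication. Arc differed by −1.75 in males and −1.93 in females, Banp by −1.12 and −1.14, and Junb by −0.88 and −0.75. Egr1 differed by −0.58 in males and −1.18 in females, and Per2 by −0.68 in males and −1.24 in females. The limma interaction p, unadjusted, was 0.0804 for Egr1 and 0.13 for Per2, so that neither passed. The smallest interaction p belonged to Asap2, an ARF GTPase-activating protein gene, with differences of 0.05 in males and −0.66 in females, to Pdzd2, with 0.55 and −0.69, and to Reep6, with 0.98 and −0.57. The adjusted interaction p of all 3 was 0.529 (limma, BH).

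**Figure D5:**
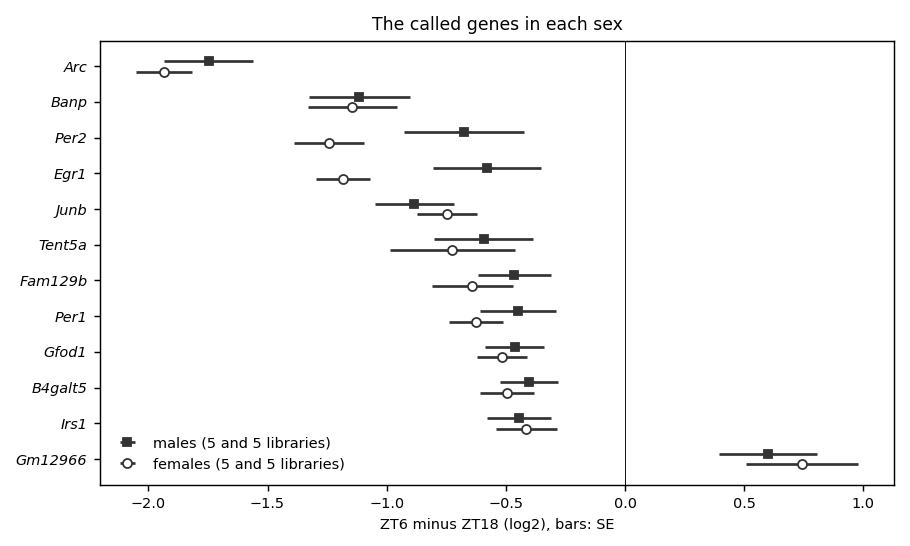
Log2 difference between ZT6 and ZT18 (horizontal axis, bars are SE) for the 12 genes that changed, in males (squares) and females (open circles), 5 libraries of each time. All have the same sign in both sexes, and the distance between the sexes is widest for Egr1 and Per2. The genes were chosen by the fit of both sexes together.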

How the data were processed

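RNA of homogenate medial prefrontal cortex was sequenced with a stranded total RNA kit, per the labels' protocols. The submitters' processing notes name FastQC, HTSeq, DESeq2 and the build GRCm38. The aligner and the strand setting of the counting are not given in the sources used here. The deposited values are log2(scaled count + 1), where the authors divided read counts by a size factor per library. The steps between low values gave whole reads for 100% of values up to 5000 reads within a tolerance of 0.1. Symbols came from GENCODE M21.

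Genes that reached 10 reads in 4 or more of 59 libraries were tested with limma 3.58.1 in R 4.3.3 (trend and robust fit) with terms for time, sex and run, over 20 libraries, and adjusted by Benjamini-Hochberg over 4273 genes. Each fold change is on the log2(value + 1) scale, which understates changes of low genes. Count-based edgeR and DESeq2 tests were not run, and limma voom on recovered reads was an alternative. Permutation tests used 100000 resamples in scipy 1.17.1. The fit was tested on simulated data. No library pair within a group agreed within sampling noise (40 pairs). Genes named were members of the clock, immediate early, effector, ER chaperone and glucocorticoid lists that changed or had an unadjusted p under 0.05, genes that changed outside them (12 at most in each direction, mean log2 of 5 or more), the 3 of smallest p in every other list of at least 3 tested genes, all clock genes, and 3 for the sex difference. Others, such as Gm12966, Hs3st1, Omg, Mas1, Mettl7a1, Paqr8, Mfsd2a, Rasl10a, Nr4a2, Pdk4, Cables1, Ddit3, Asns, Hspa8 and the remaining markers, were chosen after their values had been seen. The members and lists were chosen with earlier results of these data known, and the ribosomal list was narrowed after kinase genes were seen to match. Alternatives covered scaling, filters, pseudocount, the run term, the other times, the noncoding share and each library left out. Values of some genes are not reported here.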

Additional observations from a re-analysis of the deposited data

Results flagged for a closer look

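In 76 groups of 10 libraries checked for a library standing apart by its gap to the nearest other library, 5 had 1, where chance gives about 1 in 20. All 5 were the lowest of their group. Hlf had 11.44 in the ZT18 male library of run 4, where the next was 11.68. Ier5l had 7.832 in the ZT18 male library of run 5, where the next was 8.63, and the same library had 5.851 for Gadd45b, where the next was 6.816. Fosb had 7.189 in the ZT18 male library of run 2, where the next was 7.881. Gpr3 had 4.725 in the ZT6 female library of run 5, where the next was 5.731. None of these 5 genes changed in the 20 libraries as fitted in the report (limma). In the fit of all 6 times Ier5l passed with an adjusted p of 0.02015 and Hlf with 0.04609, and without the ZT18 male library of run 5 Ier5l differed by −0.6087 (limma, BH-adjusted p = 0.02703).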

How the results depend on the processing

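Arc and Banp kept their call and direction in all 34 settings, and none of the 12 genes reversed. The 12 genes became 20 with voom on recovered reads, 48 with all 6 times, 28 with the noncoding share as covariate, 19 with a block for each run and sex, 19 without the male libraries of run 4, 3 without run 5 and 3 with library totals of the table. The share of higher calls was 5 of 28 with the covariate and 11 of 48 with all times. Leaving out single libraries gave 4 to 18 genes, fewest without the ZT18 female library of run 5, and 5 to 7 without the female libraries of run 1, the ZT6 female libraries of runs 2 and 5 or the male libraries of run 1. In males the 1 gene became 0 without trend and robust fit, 0 with the noncoding share as covariate and 6 without the male libraries of run 4, and 0 to 6 with single libraries left out, 0 without either run 1 library. In females the 214 became 3 without the replicate block, 2 without trend and robust fit, 94 without run 5 and 53 with the covariate, and 64 to 266 with single libraries left out. These were 69 without the ZT6 and 64 without the ZT18 library of run 1, 98 and 96 without those of run 5, and 110 without the ZT18 library of run 4, with about as many without its ZT6 library. The sex difference went from 0 to 401 without the male libraries of run 4 and reached 410 with single libraries left out. Without the replicate block 11 genes changed pooled, 9 of them shared with the 12. Replicate numbers come from serial numbers, and same-run libraries correlated at a mean of 0.0862 (30 pairs, −0.374 to 0.47) against −0.0208 for other runs (120 pairs), so the numbers are not shown to pair libraries. Sik3 ran from −0.1104 to 0.0861 around −0.02 and Pdzd2 from −0.1866 to 0.03847 around −0.07 with single libraries left out, and so changed sign. The cause of these changes was not tested. Reads per library went down to 16 for Tent5a and Fos, 27 for Gm12966 and 9 for Crh, which limits the precision of single values.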

Other observations

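Several groups of genes outside the comparisons above had members with an unadjusted p under 0.05, where 8.94% of all genes did. None of the genes named here passed after adjustment in the 20 libraries with limma or voom, while Pfkfb3 and Slc25a28 passed in the fit of all 6 times, both with an adjusted p of 0.02015 (limma, BH). In the glycolysis list 3 of 13 did, all lower at ZT6. Pfkfb3, which makes the activator of phosphofructokinase, averaged 8.78 ± 0.30 at ZT6 and 9.21 ± 0.15 at ZT18 (SD, n = 10 each), Pygm, glycogen phosphorylase, averaged 7.42 ± 0.56 at ZT6 and 7.96 ± 0.36 at ZT18, and Slc2a1, the glucose transporter GLUT1, averaged 10.43 ± 0.25 at ZT6 and 10.69 ± 0.27 at ZT18. Among 8 monoamine, histamine and muscarinic receptor genes, Hrh3, the histamine H3 receptor, differed by −0.40 ± 0.12 and Htr1a, the serotonin 1A receptor, by 0.30 ± 0.12 on the log2 scale. Among 15 voltage-gated potassium channel genes, Kcna4 differed by 0.23 ± 0.09 and Kcnh1 by 0.18 ± 0.07. Among 68 solute carrier genes, 11 had an unadjusted p under 0.05, 4 higher and 7 lower, led by Slc25a28, a mitochondrial iron carrier, at −0.45 ± 0.12 and lower in 10 of 10 pairs (limma, BH-adjusted p = 0.114). Dusp5, a nuclear phosphatase of ERK, differed by −0.68 ± 0.18 (limma, BH-adjusted p = 0.126).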
